A study of Homo sapiens with 6 samples.

Results

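Genes that encode CCCH zinc finger RNA-binding proteins were followed in the human uveal melanoma line 92.1 after treatment with VS-4718, a compound that inhibits focal adhesion kinase. The 10 genes were chosen by symbol: ZC3H10, ZC3H4, ZC3H7A, ZC3H11A, ZC3H13, ZC3H14, ZC3H15, ZFP36, ZFP36L1 and ZFP36L2. Each had a row of its own among the 12306 rows of the deposited expression table. They were proposed with the fold changes of the comparison below already known, so their differences between the groups are a description and not independent evidence. One group of 3 libraries came from cells given VS-4718 at 1 µM for 2 h, and the other 3 from cells given DMSO vehicle alone for the same time. Both groups were the same line with no genetic change named in the labels, and both were grown in serum-containing medium. The samples are called independent in the design text without saying whether each was its own culture; p-values therefore cover the variation among these libraries, part or all of which may be technical.

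CCCH zinc fingers are small folds in which cysteines and a histidine hold a zinc ion, and most of them bind single-stranded RNA. The ZFP36 family (ZFP36, also called tristetraprolin, with ZFP36L1 and ZFP36L2) uses a tandem pair of such fingers to bind AU-rich elements in the 3′ untranslated regions (UTRs) of short-lived messages, and recruits the CCR4-NOT deadenylase that starts their decay. The ZC3H genes carry the same type of finger on otherwise unrelated proteins of the nucleus and cytoplasm, which act in mRNA export, in poly(A) tail control, in RNA methylation and in the restraint of non-coding transcription.

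The messages of the ZFP36 family carry the kind of element that their own proteins bind, which is why these sites are shown first. In the principal GENCODE 29 transcript of each gene, the 9-base element TTATTTATT was searched for on the transcript strand. One copy was found in each of the 3 ZFP36 family 3′ UTRs and 1 in that of ZC3H14, so that 4 of the 10 genes held it, against 9.52% of the 9448 genes of the table with a 3′ UTR. The comparison was not matched for length: the median 3′ UTR of the table had 1244 bases and that of ZC3H14 has 15845. Nothing is read from the count. The sites are written 5′ to 3′ as DNA on GRCh38, with the element in capitals.
ZFP36 3′ UTR site, chr19:39409198-39409222, plus strand: tgacgactTTATTTATTctaatatg
ZFP36L1 3′ UTR site, chr14:68788079-68788103, minus strand: ctgttggaTTATTTATTttagaaat
ZFP36L2 3′ UTR site, chr2:43223450-43223474, minus strand: tatttaacTTATTTATTatcttgtg
ZC3H14 3′ UTR site, chr14:88623417-88623441, plus strand: gagttgatTTATTTATTtttttgag

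The elements differed in how densely their UTRs were filled with the shorter core ATTTA, which every copy of the longer element contains. The ZFP36 3′ UTR is 713 bases long and held 5 copies of ATTTA, or 7.01 per kb, against a median of 1.79 per kb over the genes of the table. ZFP36L1 held 8 copies in 1871 bases and ZFP36L2 5 copies in 1917 bases. The element of ZC3H14 lies 11674 bases into a 3′ UTR of 15845 bases and is thus the site farthest from its stop codon. ZC3H10 held 11 copies of ATTTA in 5647 bases and no TTATTTATT, and ZC3H4 held no ATTTA. A match is a run of letters and not a measured binding site.

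Of the 10 genes, ZC3H10, ZC3H13 and ZFP36L2 were lower in every VS-4718 library than in any vehicle library, and ZFP36 was higher in every one. Such a separation was found downwards in 11.2% of the 9229 tested rows and upwards in 5.11% of all 12306 rows. Promoters are shown for the 3 of these with a RefSeq promoter window on GRCh38.p14 (9 of the 10 genes had one), as the 250 bases before the RefSeq transcription start. In these 3 genes that start lies inside the GENCODE 29 gene, so part of each window shown does too. Capitals mark matches on either strand to any of 9 promoter motifs. The general motifs were the GC box, spelled GGGCGG, the CCAAT box, spelled by its name, and the TATA element, spelled TATAAA. Motifs of signal-driven factors were that of TEAD, spelled GGAATG, the cAMP response element, spelled TGACGTCA, that of AP-1, spelled TGANTCA, and the CArG box of serum response factor. The E-box, spelled CACGTG, and the EGR motif, spelled GCGNGGGCG, completed the search, and an EGR match can overlap a GC box.
ZC3H10 promoter, chr12:56118016-56118265, plus strand: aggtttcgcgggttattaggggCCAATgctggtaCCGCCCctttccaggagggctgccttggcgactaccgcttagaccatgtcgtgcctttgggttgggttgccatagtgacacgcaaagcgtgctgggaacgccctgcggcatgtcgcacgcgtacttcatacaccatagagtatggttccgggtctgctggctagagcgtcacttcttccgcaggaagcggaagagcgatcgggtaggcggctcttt
ZC3H13 promoter, chr13:46052747-46052996, minus strand: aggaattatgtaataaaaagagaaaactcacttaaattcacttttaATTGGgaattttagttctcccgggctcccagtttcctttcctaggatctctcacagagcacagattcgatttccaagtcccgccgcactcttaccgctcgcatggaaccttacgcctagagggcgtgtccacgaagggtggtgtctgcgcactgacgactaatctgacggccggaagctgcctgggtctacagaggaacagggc
ZFP36 promoter, chr19:39406597-39406846, plus strand: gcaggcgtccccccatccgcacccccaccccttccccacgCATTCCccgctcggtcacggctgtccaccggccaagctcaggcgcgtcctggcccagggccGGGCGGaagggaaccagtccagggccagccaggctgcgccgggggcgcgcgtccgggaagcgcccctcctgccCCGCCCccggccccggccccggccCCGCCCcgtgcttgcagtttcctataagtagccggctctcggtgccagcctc

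The ZFP36 window had 3 GC boxes and 76.4% G and C, against a median of 58.0% over all 27305 windows, and the ZC3H10 window had 58.8%. GC boxes were found in 42.3% of all windows and in 5 of the 9 members' windows. CCAAT was found in 33% of all windows and in 6 of the 9, ZC3H10 and ZC3H13 among them. The TEAD motif was in the windows of ZFP36 and ZC3H11A and in 11.9% of all windows. The cAMP response element was in the window of ZC3H4 and in 1.77% of all windows. The E-box was in the window of ZC3H11A and in 6.49% of all windows. No member's window held an AP-1, CArG, EGR or TATA match, which were found in 6.6%, 1.14%, 8.25% and 11.1% of all windows. That says only that these letters are not in these 250 bases.

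Expression values were taken as log2 of a TPM-like abundance, a scale inferred from the library sums. On such a scale reads are adjusted for transcript length and to a fixed total, and levels can be set beside each other between genes. Scaling for length was not tested, so the order of genes by level rests on it. No read depth is kept. Row names follow mouse usage although the labels name a human line and GRCh38. Of the 12306 rows 9641 matched a human gene, and a level describes a row of this table. Of 9 melanocyte markers, PMEL (12.21 ± 0.07 in vehicle, SD, n = 3), TYRP1 and SOX10 were high, while MLANA and TYR had means below 0 in both groups and DCT was at 0.63 ± 0.06 in vehicle. Rows existed for 5 of 6 fibroblast markers but for only 1 of 6 immune and 1 of 5 epithelial markers, and none of these rows was high enough to be tested. Rows of 2 of the 5 endothelial markers existed, of which PECAM1 was at 2.53 ± 0.30 in vehicle. Library medians over all rows lay between 3.004 and 3.086.

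The 10 genes spanned more than 7 log2 units in level. ZFP36L1 was the most abundant, with a mean of 7.36 over the 6 libraries (164 TPM-like units as a geometric mean), followed by ZC3H15 at 7.22, and the ranges of this pair overlapped. ZC3H7A came next at 6.61. ZFP36L2 at 5.39 and ZC3H11A at 5.38 could not be ordered, and neither could ZC3H14 at 3.90 and ZC3H10 at 3.70. ZC3H13 at 2.99, ZC3H4 at 1.82 and ZFP36 at -0.27 followed, each below the range of the gene before it. Within the ZFP36 family ZFP36L1 therefore supplied most of the summed abundance on this scale, from 75.4% to 81.0% of it in the 6 libraries. ZFP36 supplied from 0.268% to 0.602%, with the 3 highest shares in the 3 VS-4718 libraries.

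**Figure D1:**
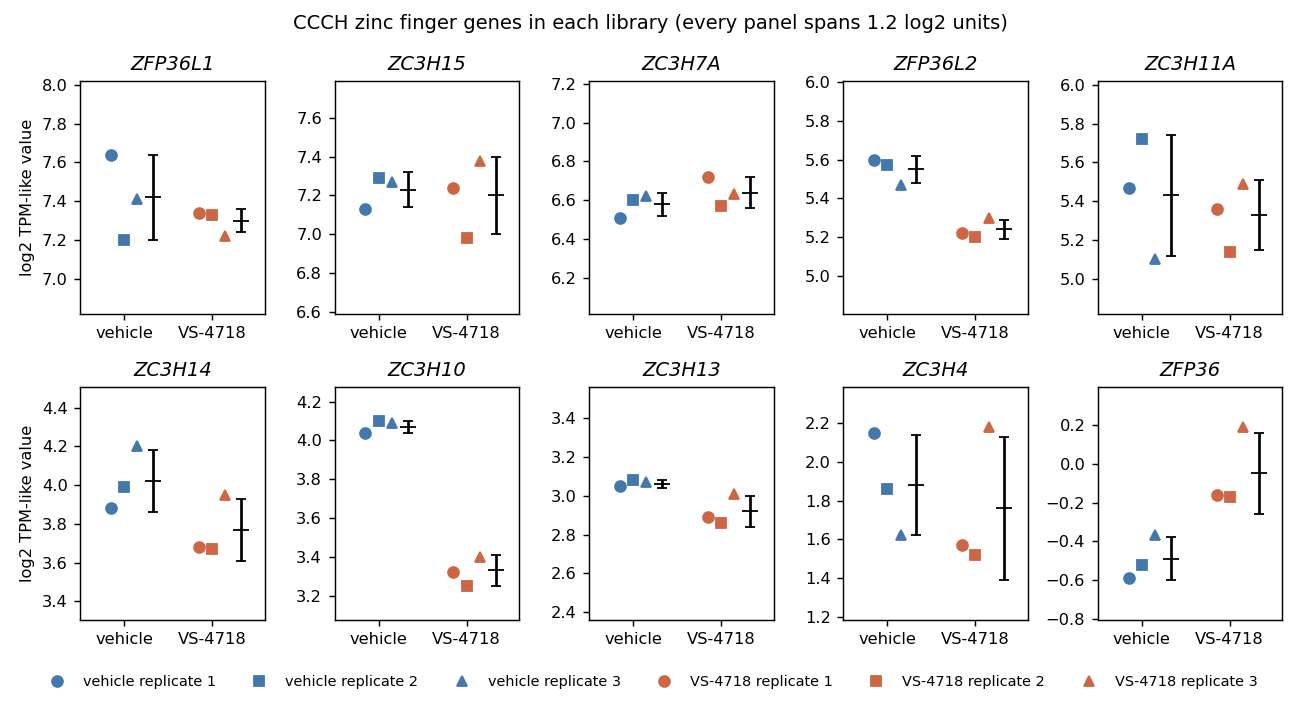
Log2 TPM-like value (vertical axis) of each CCCH gene in the 3 vehicle libraries (blue) and the 3 VS-4718 libraries (orange), with the mean and SD of each group as black bars; panels are ordered by level and each spans the same height. ZC3H10 is split by 0.63 log2 units between the groups, and the groups overlap in ZFP36L1, ZC3H15, ZC3H7A, ZC3H11A, ZC3H14 and ZC3H4.

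The comparison asked which transcripts differed after 2 h of focal adhesion kinase inhibition. ZC3H10, an RNA-binding protein described as a regulator of mitochondrial function and brown fat thermogenesis, fell. Its values were 4.04, 4.10 and 4.09 log2 units in vehicle and 3.32, 3.25 and 3.40 with VS-4718. The vehicle libraries had an SD of 0.03 and the VS-4718 libraries one of 0.08. The pooled SD was 0.06 against a median of 0.15 over the tested rows, of which 10.8% had a smaller one. The highest treated library was 0.63 below the lowest vehicle library. On the linear scale the libraries went from 16.4, 17.1 and 17.0 to 9.97, 9.54 and 10.6 TPM-like units, and their geometric mean fell by 40.5%. The log2 fold change was -0.75 (SE 0.09, 95% interval -0.95 to -0.55; limma, Benjamini-Hochberg adjusted p = 0.045 over 9229 tested rows).

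ZC3H10 was the 1 member called of 9 tested, against 0.13% of all tested rows (12 of 9229), and it was 12th by p, the last of the called rows. Since the comparison was known when the genes were proposed, nothing is read from that count. The size of its fall hardly depended on the libraries used, but the call did. Leaving out any 1 of the 6 libraries gave fold changes from -0.79 to -0.71 and adjusted p from 0.12 to 0.25 (limma). The call was lost each time. Such fits have fewer degrees of freedom, and the number of rows called in all then ran from 0 to 7 in place of 12.

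The ZC3H10 gene (ENSG00000135482.6, chromosome 12 from 56118159 to 56127514 on GRCh38, protein coding) shares 9265 bases with ESYT1, a membrane tethering protein gene on the same strand. The 2 rows moved differently. ESYT1 had 4.82, 4.81 and 4.90 log2 units in vehicle and 4.90, 4.81 and 4.84 with VS-4718, a log2 fold change of 0.00 (SE 0.07, adjusted p = 0.99). The division of reads from the shared stretch between them was not tested. Over the 6 libraries the tested rows whose values ran most like those of ZC3H10 were MAZ (Pearson r = 0.994), FAM193A (r = 0.992) and TBX2 (r = 0.991). These r describe 6 points that the 2 groups split, and the changes were smaller than that of ZC3H10: log2 fold changes of -0.13 for MAZ, -0.45 for FAM193A and -0.11 for TBX2, with adjusted p from 0.35 to 0.58.

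**Figure D2:**
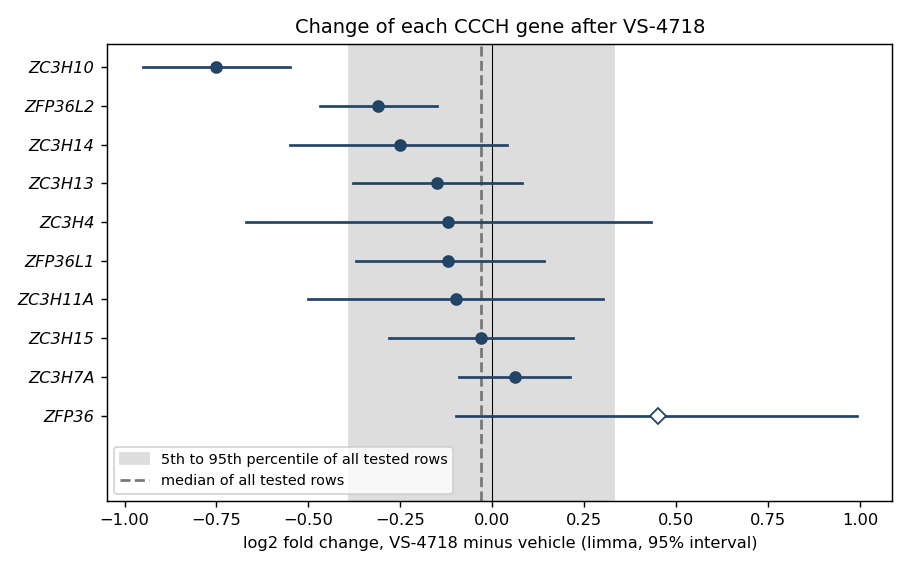
Log2 fold change, VS-4718 minus vehicle (horizontal axis), with the 95% interval from limma, for each CCCH gene; the open diamond is ZFP36, fitted only without the filter on low rows. The grey band holds the 5th to 95th percentile of all tested rows (-0.39 to 0.33) and the dashed line their median (-0.03); the whole interval of ZC3H10, and of no other member, lies outside the band.

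Mean changes in the ZFP36 family differed in sign and size. The intervals of ZFP36 (fitted without the filter) and ZFP36L1 included no change, so no difference in direction is read from them. ZFP36L2 and ZFP36L1 were tested and did not pass. ZFP36L2, which destabilises AU-rich messages in blood and germ cells, had 5.60, 5.57 and 5.47 log2 units in vehicle and 5.22, 5.20 and 5.30 with VS-4718. The groups did not overlap and the gap was 0.17. The log2 fold change was -0.31 (SE 0.07, interval -0.47 to -0.15), a change of -19.4% in the geometric mean, with an adjusted p of 0.25 (limma). Its unadjusted p ranked 103rd of 9229.

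ZFP36 itself, an early response gene whose protein restrains cytokine messages, had a low level and did not reach the filter for testing, a mean over 0.70 log2 units. Its values were -0.59, -0.52 and -0.37 in vehicle and -0.16, -0.17 and 0.19 with VS-4718, or 0.666, 0.695 and 0.776 against 0.892, 0.891 and 1.14 TPM-like units. Every treated library was above every vehicle library, as in 5.11% of all 12306 rows. The log2 fold change was 0.45, and in limma without the filter the interval ran from -0.10 to 0.99 (adjusted p = 0.64). ZFP36L1, which acts in angiogenesis and in the cell cycle of lymphocytes, had 7.64, 7.20 and 7.41 in vehicle against 7.34, 7.33 and 7.22. These groups overlapped, with a log2 fold change of -0.12 (SE 0.11, adjusted p = 0.75). The fold change of ZFP36L1 was -0.01 without vehicle replicate 1 and -0.22 without vehicle replicate 2, so its size depended on the vehicle libraries used.

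The members that act in nuclear RNA processing, ZC3H13, ZC3H14, ZC3H4 and ZC3H11A, had lower means and did not pass the test. ZC3H13, a subunit that anchors the m6A writer complex in the nucleus, had 3.05, 3.08 and 3.07 log2 units in vehicle and 2.89, 2.86 and 3.01 with VS-4718. The groups were separated by only 0.04 (log2 fold change -0.15, SE 0.10, adjusted p = 0.66). With ZC3H10 and ZFP36L2 this made 3 of 9 tested members that were lower without overlap, against 11.2% of all tested rows; nothing is read from that count for the reason given above. ZC3H14, which binds poly(A) tails and limits their length, had 3.88, 3.99 and 4.20 in vehicle and 3.68, 3.67 and 3.95 with VS-4718, a log2 fold change of -0.25 (SE 0.13, adjusted p = 0.57). Here VS-4718 replicate 3 lay above vehicle replicate 1.

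ZC3H4 restrains non-coding transcription together with WDR82. Its values ran from 1.62 to 2.15 in vehicle and from 1.52 to 2.18 with VS-4718, so the highest and the lowest library of all were both treated ones. ZC3H11A, a partner of the TREX mRNA export complex, ran from 5.10 to 5.72 and from 5.14 to 5.49. Log2 fold changes were -0.12 (SE 0.23) for ZC3H4 and -0.10 (SE 0.17) for ZC3H11A. ZBED6, a transcription factor gene that lies within ZC3H11A on the same strand, shares 59286 bases with it and has its own row. That row differed by -0.27 on the log2 scale (SE 0.15, adjusted p = 0.62, limma). It was lower without overlap, by a gap of 0.07, as were 11.2% of all tested rows. The division of reads between ZBED6 and ZC3H11A was not tested. ZC3H4 and ZC3H11A were the members with the largest spread within a group, with pooled SDs of 0.32 and 0.25 against a median of 0.15 over the tested rows.

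The 2 most abundant ZC3H genes had overlapping groups and the smallest fold changes. ZC3H15, the stabilising partner of the GTPase DRG1, had 7.13, 7.29 and 7.27 log2 units in vehicle and 7.24, 6.98 and 7.38 with VS-4718, a log2 fold change of -0.03 with an interval from -0.28 to 0.22. ZC3H7A, which binds miRNA hairpins, had 6.51, 6.60 and 6.62 against 6.72, 6.57 and 6.63, a log2 fold change of 0.06 with an interval from -0.09 to 0.21. It was the 1 tested member with a higher mean. These are 95% intervals for single genes, and like the p-values they cover only the variation among these libraries.

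Treated libraries did not deviate alike. VS-4718 replicate 2 had the lowest of the treated values in 9 of the 10 genes and VS-4718 replicate 3 the highest in 8 of 10. Over all tested rows the corresponding shares were 42.2% and 40.8%. The median deviation of the members from their group mean was -0.08 in VS-4718 replicate 2 and 0.12 in VS-4718 replicate 3, against -0.03 and 0.02 over all tested rows. With the medians of the libraries set equal, 7 of the 9 tested members had a lower mean in place of 8, because ZC3H15 went to 0.00. Of all 9229 tested rows, 4553 then had a lower mean in place of 5370. Counts given below with equal library medians are to be set beside the 4553. The median fold change of the 9 was -0.12, or -0.09 with equal medians, and that of all tested rows -0.03, or 0.00.

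**Figure D3:**
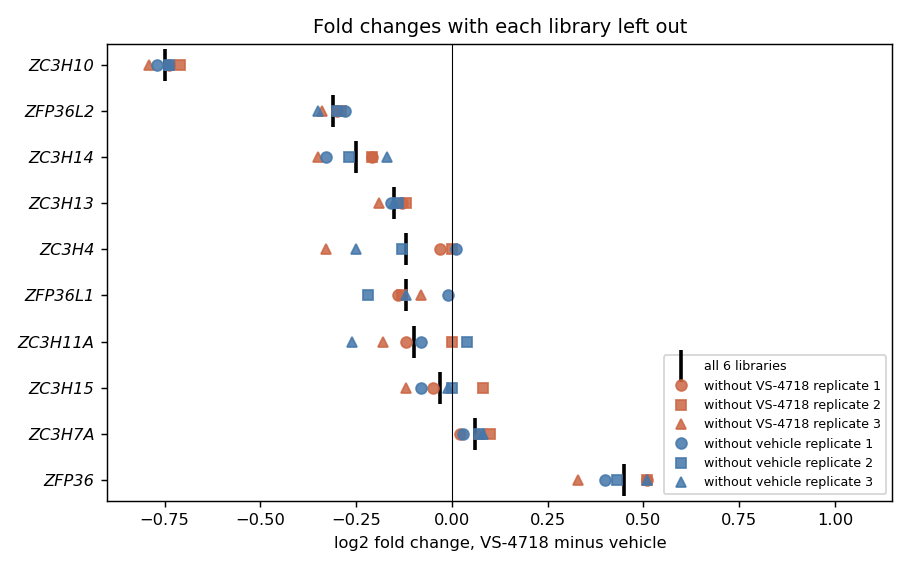
Log2 fold change of each CCCH gene (horizontal axis) with all 6 libraries (black bar) and with each library left out in turn (points; blue, a vehicle library left out; orange, a VS-4718 library). ZC3H10 stays between -0.79 and -0.71 and ZFP36L2 between -0.35 and -0.28, whereas ZC3H4, ZC3H11A and ZC3H15 have values on both sides of 0.

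Other CCCH genes gave no call. Of 43 listed, 37 had a row and 31 were tested, 18 of them with a lower mean (58.1%, against 58.2% of all tested rows) and a median log2 fold change of -0.07. The smallest p belonged to TOE1, a deadenylase that trims the tails of small nuclear RNAs, which went from 4.59 ± 0.10 (SD, n = 3) to 4.08 ± 0.10 log2 units (adjusted p = 0.18, limma). NUP42 (row NUPL2), a nucleoporin of the mRNA export gate, went from 4.13 ± 0.17 to 3.75 ± 0.01 (adjusted p = 0.36, limma). The log2 fold changes of ZRSR2, a splice site factor of the minor spliceosome, and ZC3H8, of the little elongation complex, were -0.59 (SE 0.22) and -0.45 (SE 0.18).

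The machinery that ZFP36 proteins recruit was read in the same way. Of 18 tested deadenylation genes 8 had a lower mean (median 0.05) and none was called. BTG1 and TOB1, antiproliferative adaptors of the CCR4-NOT deadenylase, had log2 fold changes of 0.51 (SE 0.10, adjusted p = 0.21) and 0.39 (SE 0.12, adjusted p = 0.40). The CCR4-NOT subunits CNOT11 and CNOT10 had log2 fold changes of -0.27 (SE 0.11) and -0.46 (SE 0.21). Decapping and exonuclease genes had 14 of 25 lower means (10 with equal library medians) and no call. The exosome subunits EXOSC3, EXOSC9 and EXOSC5 had log2 fold changes of -0.21, -0.25 and -0.20, and DCP2, the decapping enzyme, one of 0.37, with adjusted p from 0.42 to 0.51.

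Other proteins that bind AU-rich elements had 7 of 11 lower means, a median of -0.03 and no call. HNRNPDL went from 6.13 ± 0.06 to 5.67 ± 0.13 log2 units and HNRNPD, which encodes the decay factor AUF1, from 8.82 ± 0.07 to 8.56 ± 0.02 (SD, n = 3; adjusted p = 0.18 each, limma). NCL (nucleolin) had a log2 fold change of -0.13 and TIA1, a stress granule protein, one of -0.26. With equal library medians 5 of the 11 were lower.

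Messages known as targets of the ZFP36 family gave no call either. Of 30 listed, 19 had a row and 15 were tested; TNF, CSF2, IL6, CXCL8 and PTGS2 were among those with no matching row. Of the 15, 10 had a lower mean (7 with equal library medians), with a median log2 fold change of -0.02. CCND1, which encodes cyclin D1, went from 6.22 ± 0.07 to 5.94 ± 0.05 log2 units (SD, n = 3; adjusted p = 0.26, limma). PLK3 and DUSP1 had log2 fold changes of -0.23 (SE 0.15) and 0.17 (SE 0.11). Across the table, 651 tested rows matched a gene whose 3′ UTR holds TTATTTATT. Their median log2 fold change was -0.05 and 63.9% had a lower mean, beside -0.04 and 59.5% for all 7311 tested rows with a 3′ UTR. Of the 651, MAT2A and SRSF3 were called, both lower, beside 8 of the 7311 and 0.13% of all tested rows. Both calls were lost with the replicate block and without the variance trend. MAT2A lost its call without any 1 of the 6 libraries (adjusted p from 0.095 to 0.17), and SRSF3 without any 1 except vehicle replicate 2 (adjusted p from 0.043 to 0.087 over the 6).

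**Figure D4:**
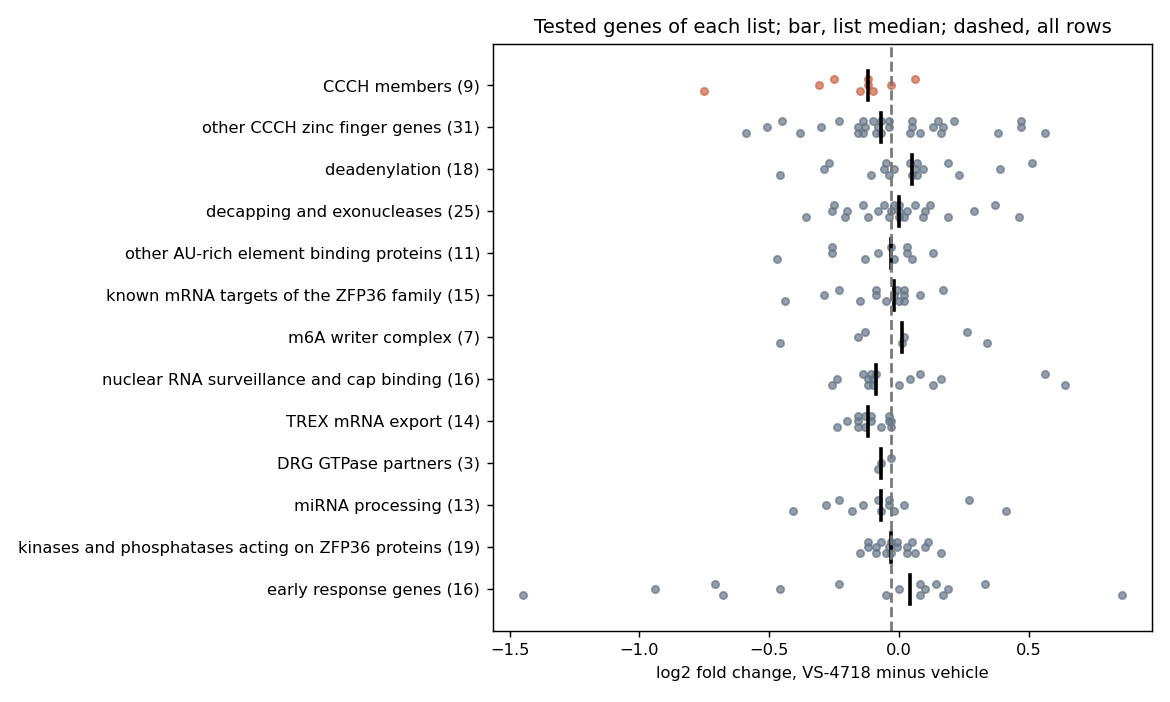
Log2 fold change, VS-4718 minus vehicle (horizontal axis), of every tested gene in the CCCH genes (orange) and in each list described (grey), with the number tested in brackets; the heights within a line only separate the points. Black bars are list medians, from -0.12 to 0.05, and the dashed line is the median of all tested rows, -0.03.

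The complexes around the ZC3H proteins were read in the same fit. Of the 7 m6A writer genes, the partners of ZC3H13, 3 had a lower mean and none was called. RBM15B was at -0.46 on the log2 fold scale (SE 0.09, adjusted p = 0.19) while its paralog RBM15, which shares the role of guiding the complex to RNA, had one of 0.34 (SE 0.12, adjusted p = 0.42). The values were 0.26 (SE 0.09) for WTAP and -0.13 (SE 0.06) for METTL3, the methyltransferase. All 14 tested TREX export genes, whose complex ZC3H11A works with, had a lower mean (13 with equal library medians) and none was called. Their median was -0.12, and DDX39A (row DDX39), NXT1, SARNP and THOC3 had log2 fold changes of -0.24, -0.20, -0.13 and -0.16 with adjusted p from 0.48 to 0.54.

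Genes of nuclear RNA surveillance and cap binding, the setting of ZC3H4 and ZC3H14, had 10 of 16 lower means, a median of -0.09 and no call. SRRT, which links the cap to decay, was at -0.26 on the log2 fold scale (SE 0.09), and for PPP1R10, a phosphatase subunit that is itself a CCCH protein, it was 0.56 (SE 0.22, adjusted p = 0.49). SETD1B and ZFC3H1 had log2 fold changes of 0.64 (SE 0.36) and -0.24 (SE 0.14). The GTPases DRG1 and DRG2 and the binding protein RWDD1 had log2 fold changes of -0.07, -0.03 and -0.08. Of 13 miRNA processing genes 10 had a lower mean, and DGCR8, AGO3, TARBP2 and AGO1 had log2 fold changes of -0.41, 0.41, -0.23 and 0.27 with adjusted p from 0.53 to 0.65.

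Kinases, phosphatases and 14-3-3 proteins that act on ZFP36 proteins had 12 of 19 lower means (8 with equal library medians), a median of -0.03 and no call. The 4 with the smallest p, YWHAH, YWHAG, YWHAB and PPP2CB, had log2 fold changes of -0.12, -0.15, 0.11 and -0.12. Early response genes, the class in which ZFP36 is counted, went both ways, with 7 of 16 lower. CCN1 (row CYR61) fell, with a log2 fold change of -0.71 (SE 0.07, adjusted p = 0.023), and was the 1 gene of these lists that was called, against 0.13% of all tested rows. Its fold change stayed between -0.73 and -0.69 without any 1 of the 6 libraries, but each time the call was lost (adjusted p from 0.091 to 0.17), as it was with the replicate block (0.20) and without the variance trend (0.078). EGR1, JUN and NR4A1 had log2 fold changes of 0.86 (SE 0.11), -1.45 (SE 0.18) and 0.33 (SE 0.07), with adjusted p of 0.072, 0.072 and 0.26 (limma).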

How the data were processed

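The table deposited by the authors gives log2 values of a TPM-like abundance per gene symbol. The submitters' processing notes name kallisto and GRCh38; index, annotation, strandedness and filters were not given in the sources used here. That the scale is TPM-like was inferred from linear library sums between 836527 and 840714, which do not show whether values were scaled for length. No read depth is kept, so no counting interval exists. Columns were matched to samples by their titles.

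The test was limma 3.58.1 (R 4.3.3) with a mean-variance trend and group as the only term. It took rows with a mean above the lowest 25% (over 0.70). It was two-sided and Benjamini-Hochberg adjusted over 9229 rows, with a threshold of 0.05. Its script was tested on simulated normal values with 200 changed rows among 9229. Of the changed rows 142 were called, as were 11 others. Recovery was 50.7% at a change of 0.5 log2 units, 70.1% at 1 and 92.4% at 2. Permutation within a gene, at 3 against 3, cannot reach that threshold and was not run. Transcripts and coordinates are from GENCODE 29, with the 3′ UTR of the APPRIS principal transcript (the longest where several tie), and promoters from RefSeq (GRCh38.p14). Settings varied were the replicate block, single libraries left out, equal library medians, no filter, a stricter filter, no trend, robust variances, quality weights, a pseudocount of 1 and human names only.

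The genes and lists were chosen with earlier results of these data known. Named were all 10 CCCH genes, the called genes of each list and those with the smallest p up to 4 in all, and the 3 rows most like a called gene. One gene selected this way is not reported here. ESYT1, ZBED6, PMEL, TYRP1, SOX10, MLANA, TYR, DCT, PECAM1, MAT2A, SRSF3 and the targets with no matching row were added once their values were known. Figures used matplotlib 3.10.9.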

Additional observations from a re-analysis of the deposited data

How the results depend on the processing

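The number of called rows was 12 with all 6 libraries and fell to 0 with the replicate block (where limma gave 793 rows an unadjusted p under 0.05) and to 0 in limma without the mean-variance trend (910 such rows), and it ran from 0 to 7 with a library left out. The called CCCH gene, ZC3H10, made that count 1. It became 0 with the replicate block (adjusted p = 0.31), without the trend (0.078), with no filter (0.063) and without any 1 of the libraries (from 0 to 0 over the 6). The call was kept with median scaling, the stricter filter, quality weights, robust variances, the pseudocount and human names only, with adjusted p from 0.033 to 0.0496. The fits with a library less or a block have fewer degrees of freedom and the fit with no filter tests 12306 rows; otherwise the cause was not tested. Over these alternatives the fold change of ZC3H10 stayed between -0.79 and -0.69. With a library left out, log2 fold changes ran from -0.33 to 0.01 for ZC3H4 (positive without vehicle replicate 1), from -0.26 to 0.04 for ZC3H11A (positive without vehicle replicate 2) and from -0.12 to 0.08 for ZC3H15 (positive without VS-4718 replicate 2), and ZC3H15 was at 0.00 with median scaling. Of 140 values of the 10 genes under an alternative, 127 kept direction and side of the threshold, most of them of genes with no call to lose. Residuals of libraries with the same number correlated at 0.13, 0.05 and 0.03 across genes, and those with different numbers at -0.09 to 0.05. These values do not settle whether the numbers pair the samples. The main fit took no pairing, and the calls above depend on that choice.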
